A study of Mus musculus with 6 samples.

Results

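Egr1, Egr2, Klf4, Klf6, Klf10, Ier3 and Ier5 are early response genes, followed here in the hypothalamic paraventricular nucleus (PVN) after an electroconvulsive seizure (ECS). The members were all probe sets whose only gene symbol in the array annotation is one of these 7 genes, which gave 13 of the 22626 probe sets that are not array controls. Klf6 and Ier5 have 3 probe sets each, Egr2 and Klf4 have 2 each, and Egr1, Klf10 and Ier3 have 1 each. Of the 13, 10 reached the median signal of their own array in at least 2 of the 6 arrays and were tested. The other 3, 1 each of Egr2, Klf6 and Ier5, were too dim for a test, and their values are given without one.

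C57Bl/6 mice under isoflurane received 1 bilateral shock through ear clips (25 mA for 1 s), and the PVN was cut out by laser microdissection 6 h or 2 h later. Sham mice were handled alike without current, and their tissue was taken at 2 h only. The ECS 6 h, ECS 2 h and sham groups hold 2 arrays each, every array is a pool of 2 to 3 animals, and the array work was done 2 times with different animals. The labels give neither age nor sex, and every group was exposed to the anaesthetic and the handling, so no group is untouched tissue. With no sham mice at the later time, ECS 6 h against sham also holds a difference in collection time, and the 2 cannot be told apart. In such bulk tissue, fewer cells of a type and less RNA per cell cannot be told apart either.

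Early response genes are switched on within minutes of strong synaptic activity, growth factors or stress, without the need for new protein, and their RNA is usually short-lived. In neurons much of this control runs through the ERK kinase cascade to the serum response factor and its partners, and through cyclic AMP and calcium to CREB. Egr and Klf proteins are zinc finger transcription factors that bind GC-rich DNA, whereas Ier3 and Ier5 are not zinc finger proteins and act on signalling and survival. Egr1 is widely used in brain tissue as a marker of recent neuronal activity.

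No member passed the test in any comparison. The test was limma, which fits a linear model with shared variance information over all 6 arrays. The adjusted p of the 10 tested probe sets was 0.999 for each at ECS 2 h against sham, 0.9997 for each at ECS 6 h against sham, and 0.999 for each at ECS 6 h against ECS 2 h. Over all 12662 tested probe sets, 0 (0%) passed at an adjusted p under 0.05 in each of these comparisons. At an unadjusted p under 0.05, 507 probe sets (4%) stood out at ECS 2 h against sham, 1.72% higher and 2.28% lower, and of the members only Egr1, which was higher. For ECS 6 h against sham it was 476 (3.76%), 1.71% higher and 2.05% lower, and of the members only 1 probe set of Klf6, which was lower. Between the ECS times it was 436 (3.44%), 1.61% higher and 1.83% lower. The differences below are therefore values and array orders, not calls. Egr1 and Ier3 were higher at ECS 2 h than in sham with no overlap between the arrays, and Klf10 had a difference of similar size with overlap. That is 2 of the 13 probe sets without overlap, close to the 16.4% of all probe sets with that order. The ECS 6 h mean of every one of the 13 probe sets lay below that of sham, as it did for 49.2% of all probe sets.

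Signals are given as log2 of the deposited signal plus 16, after quantile normalization, so that a probe set with no signal sits at 4, and differences are on the same log2 scale. Because each probe set has its own brightness, levels are set against each other only within a probe set. Oxt (oxytocin) and Sim1, a transcription factor of the developing PVN, marked the tissue in every group. Oxt averaged 11.25 at ECS 6 h, 10.99 at ECS 2 h and 10.82 in sham, and Sim1 averaged 8.35, 8.46 and 8.18 in the same groups. The 7 markers of PVN neuroendocrine neurons on the array, these 2 included, had a summed normalized signal of 6513 and 5379 at ECS 6 h, 6215 and 5446 at ECS 2 h, and 4389 and 4497 in sham. Of the 7, 6 were higher than sham at each time, and Otp, a dim probe set, was lower. Replicate 1 of the ECS 6 h group stood apart, with a mean rank correlation of 0.846 with the other arrays against 0.869 to 0.89 for those, and a 3' to 5' signal ratio of 14.1 for Gapdh against 6.43 to 10.5. The ECS 6 h differences of the members, and of any other gene whose ECS 6 h difference is printed, are therefore also given without that array. List counts and medians at ECS 6 h include it.

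**Figure D1:**
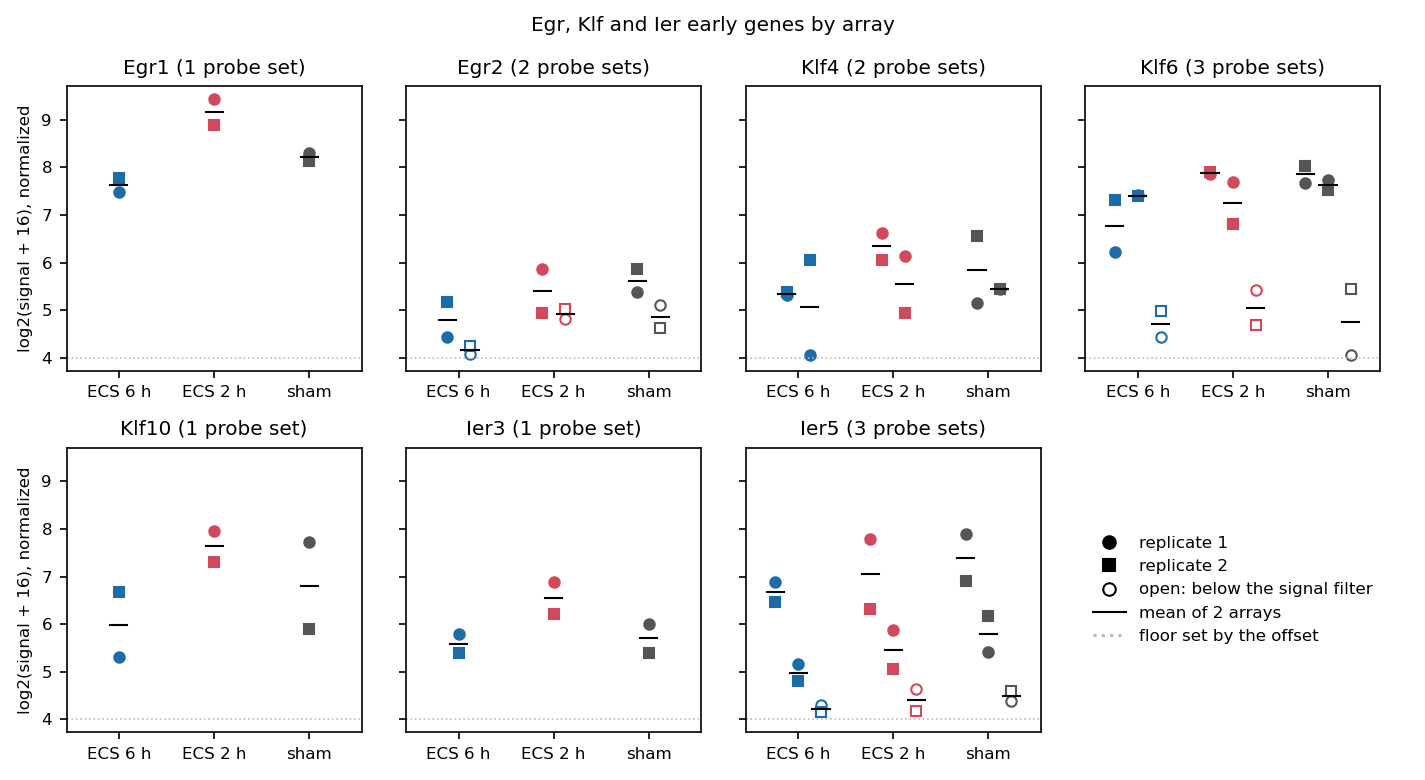
Normalized log2 signal (vertical axis, with the offset of 16) of the 13 probe sets of the 7 genes in the ECS 6 h, ECS 2 h and sham arrays. Points are arrays, circles replicate 1 and squares replicate 2, bars are means of 2 arrays, probe sets of a gene stand side by side by mean signal, and open points mark probe sets too dim to test. The Egr1 arrays fall into 3 separate levels, with ECS 2 h highest and ECS 6 h lowest.

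The Egr factors come first. Egr1, the founding member of the family and a zinc finger activator induced by synaptic input, had log2 signals of 7.49 and 7.77 in the ECS 6 h arrays, 9.44 and 8.89 in the ECS 2 h arrays and 8.29 and 8.13 in the sham arrays. No array of one group overlapped with another group, and the order was ECS 2 h above sham above ECS 6 h, which 0.987% of all tested probe sets shared. In the deposited signals the same probe set (1417065_at) read 170 and 222 at ECS 6 h, 554 and 486 at ECS 2 h, and 237 and 332 in sham.

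At ECS 2 h Egr1 was 1.93-fold higher than sham, a log2 difference of 0.95 ± 0.32 (SE) with an unadjusted p of 0.014 in limma and an adjusted p of 0.999. The 95% interval of that difference ran from 0.23 to 1.67. It was 1.49-fold lower than sham at ECS 6 h, a log2 difference of -0.58 ± 0.32, whose interval from -1.30 to 0.14 spans 0. Without replicate 1 of the ECS 6 h group the difference was -0.43. The widest gap was between the ECS times, where Egr1 was 2.89-fold lower at 6 h than at 2 h (log2 difference -1.53 ± 0.32, unadjusted p = 0.00068, adjusted p = 0.999 in limma), or -1.37 without that array. That unadjusted p ranked 6 among the 12662 tested probe sets of the comparison. Arrays of the same replicate number differed in the same direction each time. For ECS 2 h minus sham the differences were 1.14 and 0.76 in replicates 1 and 2. For ECS 6 h minus sham they were -0.80 and -0.36, and for ECS 6 h minus ECS 2 h -1.94 and -1.12. Replicate numbers are taken here as the 2 runs, which the labels do not state.

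Markers of other neurons moved between these groups too. The 6 genes of cortex and hippocampus neurons on the array, which include Camk2a and Kalrn, had a summed normalized signal of 436 and 1130 in the ECS 6 h arrays, 207 and 241 in the ECS 2 h arrays, and 2159 and 1848 in the sham arrays. All 6 lay below sham at ECS 2 h without overlap, an order met by 16% of all probe sets. At the later time 5 of 6 had a lower mean than sham, 4 of them without overlap, where 14.9% of all probe sets were. Neurod6 was near the floor, at 4.17 in both ECS 2 h arrays. The 10 general neuron markers summed to 13942 and 15998 at ECS 6 h, 12461 and 13042 at ECS 2 h, and 17440 and 16504 in sham. At ECS 2 h both sums were at their lowest while Egr1 was at its highest, and at ECS 6 h both sums and Egr1 lay below sham. The summed PVN neuroendocrine markers given above were higher than sham in both ECS groups. The part of these cell types in the Egr1 values was not tested.

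Egr2, the family member that drives myelination in Schwann cells, did not share the early rank of Egr1. Its brighter probe set (1427683_at) had 4.43 and 5.17 at ECS 6 h, 5.86 and 4.95 at ECS 2 h, and 5.38 and 5.86 in sham. The ECS 2 h arrays overlapped with sham (log2 difference -0.21 ± 0.52, interval -1.37 to 0.95), while both ECS 6 h arrays lay below both sham arrays (-0.82 ± 0.52, or -0.45 without replicate 1 of ECS 6 h). The dimmer probe set, which was not tested, had 4.08 and 4.25 at ECS 6 h, 4.82 and 5.03 at ECS 2 h, and 5.10 and 4.63 in sham. There too both ECS 6 h arrays were the lowest, with signals close to the floor and a difference from sham of -0.70, or -0.62 without replicate 1 of ECS 6 h.

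Serum response factor binds the CArG box, a run of A and T bases between CC and GG. The promoter windows of Egr2 hold this box in 2 different places, and no other searched member had it, which is why they are shown. Egr1 and Klf10 were not searched, so whether their promoters hold the box was not examined. Egr2 had 5 of the 9 windows used, and so more chances of a match. Windows of 5 of the 7 genes were used, taken from RefSeq promoters on build GRCm38.p6, and each was searched on both strands over the 250 bases before an annotated start. TGACG, the core of the CREB site, was searched too and found in windows of Egr2 and Klf4, and it occurs in 17.8% of all windows. The CArG box occurs in 1.47% of all 32851 such windows. Capitals mark the box, and both stretches lie on the plus strand, at chr10:67537484-67537513 and chr10:67537787-67537816.
Egr2, first stretch: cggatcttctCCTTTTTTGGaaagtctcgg
Egr2, second stretch: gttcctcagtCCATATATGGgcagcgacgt
A match says only that these letters are present, and no factor binding was measured in these arrays.

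The Krüppel-like factors followed. Klf10, an early target of TGF-beta that acts as a repressor, had 5.31 and 6.66 at ECS 6 h, 7.96 and 7.31 at ECS 2 h, and 7.71 and 5.90 in sham. The sham arrays lay far apart, so that both of the other groups overlapped with them, whereas both ECS 6 h arrays lay below both ECS 2 h arrays. The log2 difference was 0.83 ± 0.62 for ECS 2 h against sham and -0.82 ± 0.62 for ECS 6 h against sham, neither larger than the spread in sham (SD 1.28). The first was -0.08 without sham replicate 2 and 1.75 without sham replicate 1, and the second 0.08 without sham replicate 1, -1.72 without sham replicate 2, and -0.14 without replicate 1 of the ECS 6 h group. Against ECS 2 h, Klf10 was 3.14-fold lower at ECS 6 h (log2 difference -1.65 ± 0.62, unadjusted p = 0.022, adjusted p = 0.999 in limma), and -0.96 without that array.

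Klf6, a zinc finger factor induced by injury and growth signals, gave different answers on its probe sets. The brightest (1433508_at) had 6.23 and 7.31 at ECS 6 h, 7.87 and 7.91 at ECS 2 h, and 7.68 and 8.03 in sham. Both ECS 6 h arrays were below every other array, with a log2 difference of -1.09 ± 0.41 against sham (unadjusted p = 0.023, adjusted p = 0.9997 in limma) and -1.12 ± 0.41 against ECS 2 h. Without replicate 1 of the ECS 6 h group those differences were -0.54 and -0.57. The second probe set (1418280_at) had 7.41 and 7.39 at ECS 6 h, 7.69 and 6.82 at ECS 2 h, and 7.73 and 7.53 in sham. It too was lower than sham without overlap at ECS 6 h, but only by -0.23 ± 0.38, and it lay above the ECS 2 h mean by 0.15. Without replicate 1 of ECS 6 h these were -0.24 and 0.13. In replicate 1 of the ECS 6 h group, the array that stood apart, the brightest probe set was 1.45 below sham replicate 1 and the second 0.32 below it. The third was too dim to test and overlapped between all groups, with 4.44 and 4.98 at ECS 6 h, 5.42 and 4.69 at ECS 2 h, and 4.07 and 5.45 in sham, and its ECS 6 h difference from sham was -0.05, or 0.23 without replicate 1 of ECS 6 h.

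Klf4, one of the factors that reprogram cells to pluripotency and a regulator of the vessel wall, was measured on 2 probe sets. The brighter (1417394_at) had 5.32 and 5.38 at ECS 6 h, 6.62 and 6.06 at ECS 2 h, and 5.15 and 6.55 in sham. Sham spanned nearly the whole range, and neither ECS group stood clear of it, with differences of -0.50 ± 0.51 at ECS 6 h (-0.46 without replicate 1) and 0.49 ± 0.51 at ECS 2 h. The ECS 6 h arrays did lie below the ECS 2 h arrays (-0.99 ± 0.51, or -0.95 without replicate 1 of the ECS 6 h group). The dimmer probe set ranged over 4.07 and 6.06 at ECS 6 h, 6.14 and 4.94 at ECS 2 h, and 5.46 and 5.44 in sham, with overlap throughout. Its ECS 6 h difference from sham was -0.39, but 0.61 without replicate 1 of ECS 6 h. Endothelial and mural markers, 10 genes on the array, summed to 995 and 1282 at ECS 6 h, 1126 and 1288 at ECS 2 h, and 907 and 1264 in sham, so the groups overlapped there as well.

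The Egr site GCGNGGGCG was searched in the same promoter windows, which again left out Egr1 and Klf10. Among the searched members only Klf4 had a window that holds it, which is why its stretch is shown. The window of Klf4 has 2 copies, both on the opposite strand, in a stretch on the minus strand at chr4:55532656-55532715. The site occurs in 4.7% of all windows. Capitals mark the copies as read along the strand of the gene.
Klf4: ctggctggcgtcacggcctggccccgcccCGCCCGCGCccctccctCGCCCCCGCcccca

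The Ier genes came last. Ier3, a target of NF-kappaB that modulates cell survival, had 5.79 and 5.40 at ECS 6 h, 6.88 and 6.22 at ECS 2 h, and 6.01 and 5.40 in sham. Both ECS 2 h arrays lay above all arrays of the other groups, while ECS 6 h and sham overlapped. Ier3 was 1.79-fold higher at ECS 2 h than in sham (log2 difference 0.84 ± 0.44, interval -0.13 to 1.82, unadjusted p = 0.082, adjusted p = 0.999 in limma). Between arrays of the same replicate number it was 0.87 and 0.82. The ECS 6 h difference was -0.11 ± 0.44 from sham and -0.95 ± 0.44 from ECS 2 h, or -0.30 and -1.14 without replicate 1 of the ECS 6 h group. The size of the early difference depends on the offset, since the signals are dim, and was 1.09 with an offset of 1 and 0.50 with 64.

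The promoter window of Ier3 holds a match to the NF-kappaB site, which is found in 7.25% of all windows, and it is shown because Ier3 is a known target of that factor. The stretch lies on the plus strand at chr17:35821596-35821655, and capitals mark the match, on the opposite strand.
Ier3: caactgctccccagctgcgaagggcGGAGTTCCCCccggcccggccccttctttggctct
One window of Egr2 held the same motif, and those of Klf4, Klf6 and Ier5 did not.

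Ier5, which binds heat shock factor and the phosphatase PP2A, was lower in both ECS groups on average. Its brightest probe set (1417612_at) had 6.89 and 6.47 at ECS 6 h, 7.78 and 6.32 at ECS 2 h, and 7.88 and 6.90 in sham. Both ECS 6 h arrays were below both sham arrays, the nearest values being 6.89 and 6.90, and the ECS 2 h arrays overlapped with sham. The difference was -0.71 ± 0.52 at ECS 6 h and -0.34 ± 0.52 at ECS 2 h, and the first was -0.92 without replicate 1 of the ECS 6 h group and -0.22 without sham replicate 1. The second probe set (1460009_at) had 5.16 and 4.80 at ECS 6 h, 5.87 and 5.06 at ECS 2 h, and 5.42 and 6.16 in sham, with a difference of -0.81 ± 0.50 at ECS 6 h, or -0.99 without replicate 1 of that group. The third, at 4.15 to 4.63 in all arrays, lay near the floor and was also lower than sham without overlap at ECS 6 h (-0.27, or -0.35 without replicate 1).

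**Figure D2:**
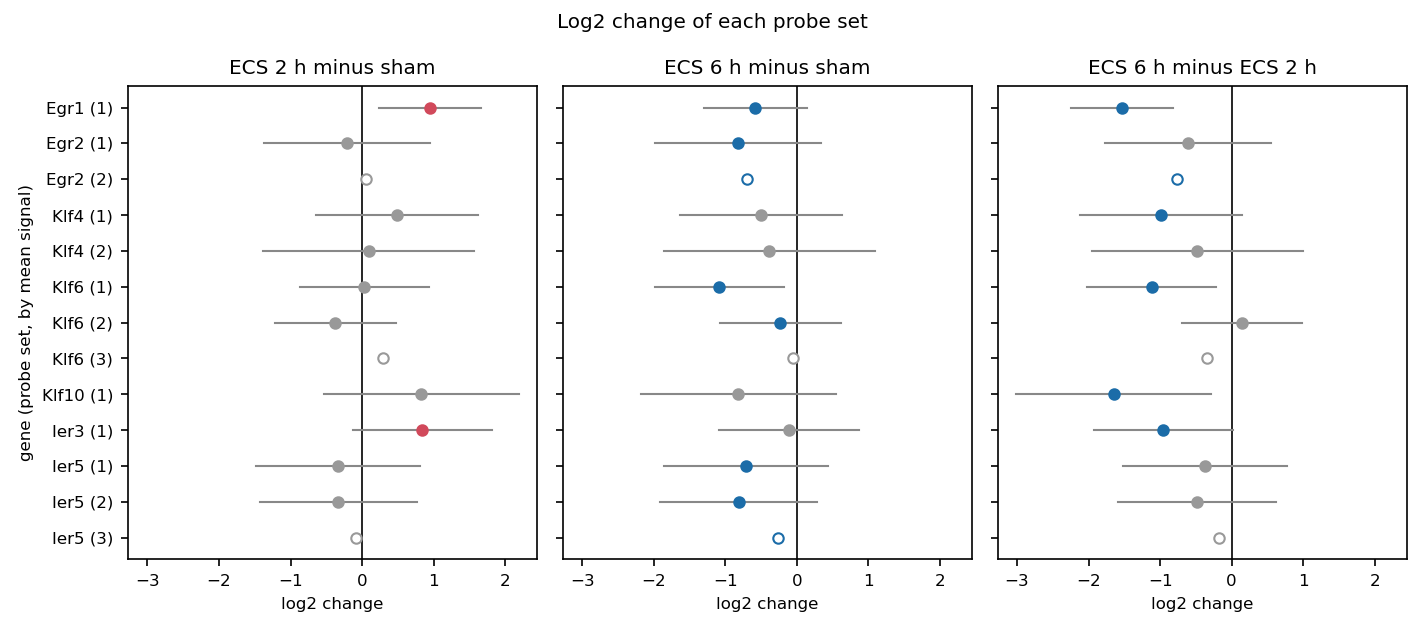
Log2 difference (horizontal axis) of the 13 probe sets for ECS 2 h minus sham, ECS 6 h minus sham and ECS 6 h minus ECS 2 h, with the 95% interval of limma as a line for the 10 tested ones and open points for the 3 others. Red marks probe sets whose arrays are higher without overlap, blue lower without overlap, grey overlapping. All 13 points lie left of 0 for ECS 6 h minus sham, and 8 of them are blue.

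Over all 6 arrays, the genes did not share a direction at ECS 2 h. By the brightest probe set of each gene, 5 of the 7 were higher than sham and 2 lower, with a median log2 difference of 0.49 against 0.006 over all probe sets. Over the 13 probe sets, 8 were higher, where 50.9% of all probe sets were, and the median was 0.06. The count of 8 became 5 with the signals as deposited, without normalization between arrays. Both arrays were above both sham arrays in 2 of 13, Egr1 and Ier3, an order met by 16.4% of all probe sets, and in 0 of 13 were both below, where 16% of all probe sets were. That share of members is close to the background. The replicate numbers differed here. Within replicate 1, 10 of 13 were higher than sham with a median of 0.44. Within replicate 2 it was 4 of 13 with a median of -0.50, and 3 were higher and 2 lower in both. The share of all probe sets with the same direction in both was not counted. Without ECS 2 h replicate 2, 7 of the 7 genes and 12 of the 13 probe sets were higher. Without ECS 2 h replicate 1 it was 5 genes and 6 probe sets, and without sham replicate 1 it was 4 genes and 6 probe sets.

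All 7 genes were lower than sham at ECS 6 h by their brightest probe set, with a median of -0.71 against 0.005 over all probe sets. The 13 probe sets were all lower as well (median -0.58), where 49.2% of all probe sets were lower. In 8 of 13 both ECS 6 h arrays lay below both sham arrays, an order met by 14.9% of all probe sets. These 8 were the probe set of Egr1, 2 of Egr2, 2 of Klf6 and 3 of Ier5. Without replicate 1 of ECS 6 h the remaining array lay below both sham arrays in 8 of 13, an order that 31.2% of all probe sets then met. Probe sets of a gene share their RNA, and the 13 are not independent. Under the settings without normalization, with median subtraction and with a trimmed mean the count stayed at 13 lower, and with an offset of 1 it was 12. It was 11 without replicate 1 of the ECS 6 h group, 11 without either sham array, and 12 without replicate 2 of the ECS 6 h group. Within replicate 1, 11 of 13 were lower than sham with a median of -0.80. Within replicate 2 it was 10 of 13 with a median of -0.44, and 8 were lower in both. The share of all probe sets lower in both was not counted. Markers of oligodendrocytes, the myelinating cells, were lower as well. All 6 on the array had a lower mean than sham at ECS 6 h, 4 of them without overlap, and they summed to 2232 and 2470 at ECS 6 h, 2626 and 2763 at ECS 2 h, and 3384 and 3070 in sham. Other glial markers were lower in part. Of 7 astrocyte markers 6 had a lower mean than sham at ECS 6 h and 1 a higher one. Of 8 microglia and macrophage markers 5 were lower and 3 higher. The part of these cell types in the members' values was not tested, nor was that of the neuron markers given with Egr1.

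Between ECS 6 h and ECS 2 h, the 7 genes were all lower at 6 h, with a median of -0.99 against 0.0008 over all probe sets. Of the 13 probe sets 12 were lower, the second of Klf6 being the exception, where 49.9% of all probe sets were lower. Both ECS 6 h arrays lay below both ECS 2 h arrays in 6 of 13, namely 1 each of Egr1, Egr2, Klf4, Klf6, Klf10 and Ier3, an order met by 15.2% of all probe sets. Of the 10 tested, 3 had an unadjusted p under 0.05 and were lower, against 1.83% of all tested probe sets, and these were Egr1, Klf6 and Klf10. All 13 were lower in replicate 1 (median -1.09) and 8 of 13 in replicate 2 (median -0.26). The share of all probe sets lower within each replicate was not counted. The count of 12 was 11 without replicate 1 of the ECS 6 h group and 8 without replicate 1 of the ECS 2 h group.

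**Figure D3:**
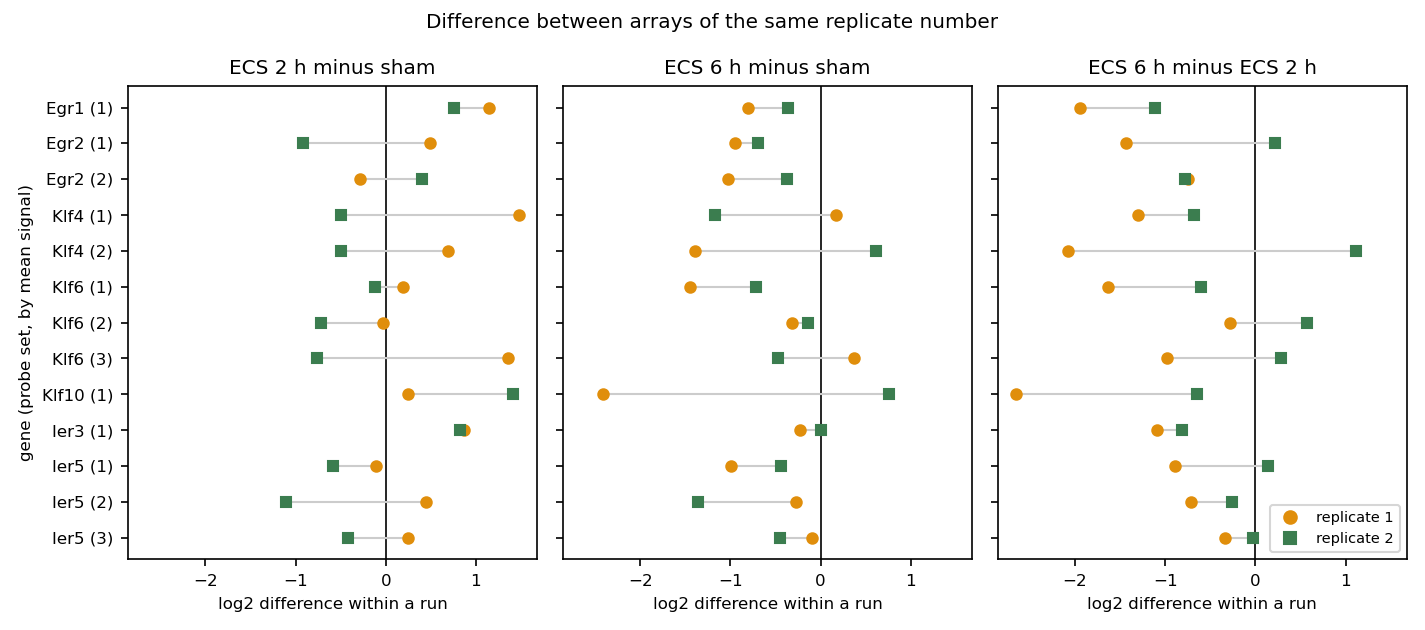
Log2 difference (horizontal axis) between arrays of the same replicate number for the 13 probe sets, with circles for replicate 1 and squares for replicate 2 joined by a line. Egr1, Klf10 and Ier3 lie right of 0 in both replicates for ECS 2 h minus sham and 1 probe set each of Klf6 and Ier5 left of it. For ECS 6 h minus sham 8 probe sets lie left of 0 in both. The share of all probe sets with the same direction in both was not counted.

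Other genes of the Egr, Klf and Ier families served as a comparison. The array carries 15 of them, of which 7 were tested and 0 were called in any comparison. Of the 15, 8 were higher and 7 lower than sham at ECS 6 h, and at ECS 2 h 10 were higher and 5 lower, with medians of 0.002 and 0.05. Many of the 15 lie near the floor, and over the 7 tested genes the median was -0.44 at ECS 6 h and 0.03 at ECS 2 h. Without overlap, 1 of 15 was higher and 5 were lower than sham at ECS 6 h, where 14.9% of all probe sets were lower. Klf9, a Klf induced by glucocorticoid and thyroid hormone, had 9.89 and 9.01 at ECS 6 h, 9.43 and 9.58 at ECS 2 h and 9.94 and 10.02 in sham, so both ECS groups were below sham, the ECS 6 h difference being -0.53 and -0.97 without replicate 1. Klf15, another glucocorticoid target, was above sham in both, with 6.58 and 6.13 at ECS 6 h, 6.43 and 5.84 at ECS 2 h and 5.56 and 5.36 in sham. Its ECS 6 h difference was 0.89, or 0.665 without replicate 1. Klf2, a factor of endothelial cells, was above sham at ECS 2 h (0.64 ± 0.45), and Klf13 below it (-0.42 ± 0.43). Klf2 reached the array median only in the ECS 2 h arrays and Klf13 only in the sham arrays. Their entry into the test was thus tied to the group where each was high, and these directions carry no weight. The close relatives Egr3, Egr4 and Ier2 were too dim to test. Ier2 had 5.19 and 4.12 at ECS 6 h, 4.71 and 5.09 at ECS 2 h and 4.04 and 4.41 in sham.

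**Figure D4:**
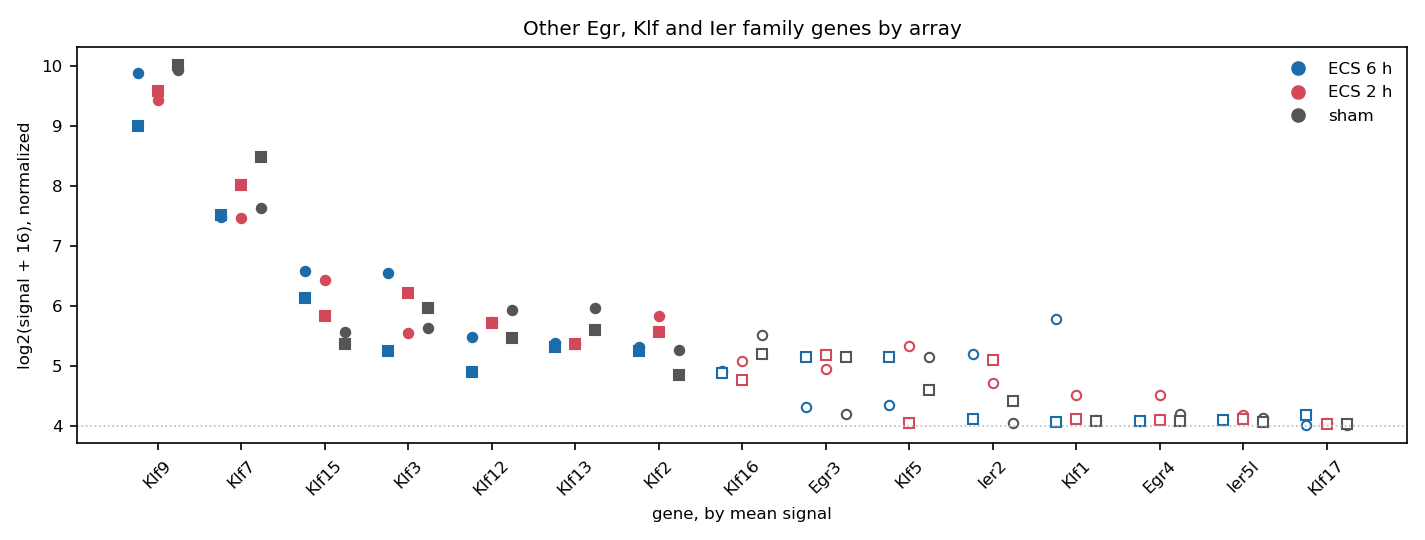
Normalized log2 signal (vertical axis, with the offset of 16) of the 15 other Egr, Klf and Ier genes on the array, by mean signal, in the ECS 6 h, ECS 2 h and sham arrays. Circles are replicate 1, squares replicate 2, and open points genes too dim to test. Klf15 lies above sham and Klf9 below sham in both ECS groups.

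Genes upstream of the early response were also read, and limma called 0 of them. Serum response factor (Srf) had 7.57 and 7.11 at ECS 6 h, 7.92 and 8.13 at ECS 2 h and 7.43 and 7.18 in sham, so that it was higher without overlap at ECS 2 h (0.72 ± 0.35, unadjusted p = 0.063, adjusted p = 0.999 in limma). The factor Creb1 differed by 0.73 ± 0.49, Crem, which makes CREB-like factors, by 0.47 ± 0.50, and Mrtfb, a coactivator of serum response factor, by -0.99 ± 0.52. Of these 9 factors and coactivators, all tested, 8 were higher than sham at ECS 2 h (median 0.27), where 50.9% of all probe sets were. At ECS 6 h 8 were higher as well (median 0.48), where 49.2% of all probe sets were lower. The ECS 6 h differences of Srf, Creb1, Crem and Mrtfb were 0.03, 0.94, 0.004 and 0.02. Without replicate 1 of ECS 6 h they were -0.19, 1.66, -0.58 and 0.11. In the ERK cascade, with 5 genes tested, 2 were higher and 3 lower at ECS 2 h (median -0.16), the kinase Map2k2 at 0.62 ± 0.38 and its relative Map2k1 at -0.47 ± 0.31, beside the GTPase Nras at -0.24 ± 0.39 and the kinase Braf at -0.16 ± 0.44. The cascade at ECS 6 h also had 2 higher and 3 lower (median -0.32). Of 12 MAP kinase phosphatases and Sprouty-type inhibitors, 7 were tested and the directions were even, 6 higher and 6 lower at ECS 2 h, with 4 higher and 8 lower at ECS 6 h. Their smallest p-values at ECS 2 h belonged to Spred2 (-0.53 ± 0.35), Dusp8 (-0.47 ± 0.42), Dusp6 (-0.56 ± 0.53) and Dusp1 (0.28 ± 0.44).

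Genes acting with or after the members were read in the same way. The Egr co-repressors Nab1 and Nab2 were both above sham on average at ECS 2 h and at ECS 6 h, and Nab1, the tested one, had 7.92 and 7.47 at ECS 6 h, 7.94 and 7.41 at ECS 2 h and 6.98 and 7.28 in sham. Its ECS 6 h difference was 0.57, or 0.34 without replicate 1. Of 12 reported targets of Egr1 on the array, 5 were higher and 7 lower than sham at ECS 2 h (median -0.16), and 7 higher and 5 lower at ECS 6 h (median 0.10). Among the 6 that were tested, Cdk5r1, the activator of the kinase Cdk5, was at -0.73 ± 0.37 and the synaptic vesicle protein Syn1 at -0.60 ± 0.35, while the growth factor Vegfa was at 0.81 ± 0.46 and tissue factor F3 at 0.42 ± 0.47 for ECS 2 h minus sham.

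For Klf10, 15 genes of TGF-beta signalling were on the array and 10 were tested. At ECS 2 h 7 were higher and 8 lower, the receptor Tgfbr1 at 0.67 ± 0.36 and the ligand Tgfb2 at -0.73 ± 0.45, with the repressor Ski at -0.61 ± 0.43 and the transducer Smad5 at 0.46 ± 0.37. Tgfb2 was lower at ECS 6 h too, with 4.64 and 5.11 at ECS 6 h against 6.03 and 5.98 in sham (-1.13 ± 0.45, unadjusted p = 0.029, adjusted p = 0.9997 in limma, and -0.89 without replicate 1 of ECS 6 h). Tgfb2 reached the array median only in the sham arrays. Its entry into the test was thus tied to the group where it was high, and its p-value carries no weight. For Ier3, 12 genes of NF-kappaB and survival were on the array and 8 were tested. At ECS 2 h 9 were higher, among them the survival gene Bcl2 (0.81 ± 0.35) and the NF-kappaB inhibitor Nfkbia (0.67 ± 0.35), while Bcl2l1 was at -0.90 ± 0.46 and Nfkb2 at -0.43 ± 0.34. Of the 12, 7 were higher at ECS 6 h.

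For Ier5, 14 genes of the heat shock factor and PP2A list were on the array and 13 were tested. The inducible chaperone Hspa1a had 5.06 and 5.87 at ECS 6 h, 6.45 and 6.97 at ECS 2 h and 4.95 and 6.08 in sham, so it was higher without overlap at ECS 2 h (1.19 ± 0.50, unadjusted p = 0.038, adjusted p = 0.999 in limma). The list as a whole had 6 higher and 8 lower at both times, with medians of -0.01 at ECS 2 h and -0.04 at ECS 6 h. Its other members with the smallest p at ECS 2 h, the PP2A subunit Ppp2cb and the chaperones Hsp90aa1 and Dnajb1, were at -0.43 ± 0.40, -0.15 ± 0.18 and 0.15 ± 0.21.

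Other immediate early genes on the array numbered 22, and 10 of them were tested. At ECS 2 h 17 were higher than sham, 8 without overlap, with a median of 0.26, where 50.9% of all probe sets were higher and 16.4% higher without overlap, and at ECS 6 h 11 were higher and 11 lower with a median of -0.009. Fos, a subunit of AP-1, had 5.32 and 5.82 at ECS 6 h, 7.24 and 6.80 at ECS 2 h and 5.04 and 5.02 in sham. Its 2 h difference from sham was 1.99 ± 0.42, that of Maff, a small Maf factor, 1.95 ± 0.43, that of Fosb 2.00 ± 0.50 and that of Jun 1.16 ± 0.36, each above the 0.95 of Egr1 on this log2 scale, although dim probe sets are compressed by the offset. The comparison between genes was not tested. Fosb reached the array median only in the ECS 2 h arrays, and Fos and Maff would also have missed the filter without them. Their entry into the test was thus tied to the group where they were high. The ECS 6 h difference from sham was 0.54 for Fos, 0.70 for Jun, 0.05 for Fosb and -0.09 for Maff, beside -0.58 for Egr1. Without replicate 1 of ECS 6 h it was 0.79 for Fos, 0.50 for Jun, 0.47 for Fosb and 0.25 for Maff, beside -0.43 for Egr1.

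Genes with the array profile most like that of Egr1, Klf10 and Klf6 were ranked by Pearson's r over the 6 arrays, among 5913 tested probe sets of other genes that spanned at least 1 log2 unit. With so few arrays and so many probe sets, high values arise in any such ranking, and the arrays share their normalization, so these are descriptions. Closest to Egr1 were Slc4a4, a bicarbonate cotransporter (r = 0.981), Opa3, a mitochondrial protein (0.979), Rwdd3 (0.975), Fam107b (0.971) and Man1a, a mannosidase of the Golgi (0.969). Fam107b had 5.65 and 5.93 at ECS 6 h, 8.11 and 7.97 at ECS 2 h and 6.82 and 6.20 in sham. Closest to Klf10 were Eola1 (0.986), Serinc3 (0.983), Tbl1x (0.979), the noncoding RNA Meg3 (0.975) and Banf1 (0.967). Closest to Klf6 were Tbc1d20 (0.983), Tekt1 (0.981), the kinase Sgk1 (0.978), Dbp, a factor with a daily rhythm (0.978), and Slu7, a splicing factor (0.977). Dbp had 5.52 and 6.65 at ECS 6 h, 7.22 and 6.95 at ECS 2 h and 7.07 and 7.14 in sham, so that replicate 1 of ECS 6 h, the array that stood apart, was its lowest, as for Klf6.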

How the data were processed

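The deposited table holds intensity values, 1 per probe set and array, which the authors made with MAS5 from Affymetrix arrays, per the submitters' processing notes. For MAS5, the version, the scaling target and the detection calls are not given here by any source. Per the labels' protocols, 2 ng of total RNA was amplified with the Ovation Pico WTA System and 5 µg of labelled cDNA was used for each array. Array medians ranged from 25.2 to 40.8, so the deposited values are not at a common level. The 64 control probe sets were left out, an offset of 16 was added, log2 was taken and arrays were quantile normalized. Of 22626 probe sets, 12662 (56%) were tested, those that reached the array median on at least 2 of the 6 arrays. The number of arrays limits the precision.

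Symbols came from the array annotation, where 20380 probe sets had 1 symbol, 691 several and 1555 none, and 20351 were matched to RefSeq, with 0 symbols changed. Differences were tested with limma 3.58.1 in R 4.3.3 (a mean per group, variance trend, prior degrees of freedom 7.64, residual 3), two-sided, with Benjamini-Hochberg adjustment over all tested probe sets. The procedure was tested on simulated data. Pools are the replicates, so p-values measure the spread between pools.

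The members and the gene lists were chosen with earlier results of these data known. All members are named, with up to 4 tested genes per pathway list by smallest p at ECS 2 h and the 5 most similar profiles for Egr1, Klf10 and Klf6. Oxt, Sim1, Neurod6, Camk2a, Kalrn, Egr3, Egr4 and Ier2 were named outside that rule, after their values were seen. Where a gene had several probe sets, the brightest on average stood for it.

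Replicate numbers were taken to mark the 2 runs, which the labels do not state. Same-numbered arrays deviated together. Across probe sets r was 0.229 for ECS 2 h and sham and 0.185 for ECS 6 h and sham. For ECS 6 h and ECS 2 h it was 0.152. A replicate block was an alternative. The others covered the offset, the scaling, the filter, the variance trend, array weights, the arrays in the fit, the mean over probe sets and leaving out each array.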

Additional observations from a re-analysis of the deposited data

Results flagged for a closer look

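By group mean, other members such as Klf4, Klf10 and Ier3 also lay above sham at ECS 2 h and below it at ECS 6 h. Egr1 was the only member that did so without overlap between the arrays at both times. Both ECS 6 h arrays lay below both sham arrays and both ECS 2 h arrays above them, with a log2 difference of -1.53 for ECS 6 h minus ECS 2 h. That difference itself did not pass in limma (adjusted p = 0.999), and over the 18 alternatives its adjusted p lay between 0.254 and 0.9998. Both comparisons use the same sham arrays. The same order was found in 125 of the 12662 tested probe sets (0.987%). The cause was not tested.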

How the results depend on the processing

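Depth is limited by signal over background, since several member probe sets lie near the floor set by the offset. No member passed limma's adjusted test under any of the 18 alternatives to the settings used here. The number of probe sets called over the whole array at ECS 2 h against sham was 0, but 1 with the values as deposited, 1 with median subtraction, 2 with array weights, 4 with the replicate block and 12 when the third group was left out of the fit (4 arrays), and it ran from 0 to 10 when single arrays were left out. At ECS 6 h it ran from 0 to 6 against sham and from 0 to 3 against ECS 2 h when single arrays were left out. With the replicate block no member changed its call. The log2 differences were bound to be the same there, since each group holds 1 array of each replicate number. The number of member probe sets higher at ECS 2 h was 5 instead of 8 with the values as deposited, a count added after seeing the data. Leaving out single arrays, the number of the 7 genes higher ran from 4 to 7 at ECS 2 h against sham, with 6 to 12 of the 13 probe sets, from 0 to 2 at ECS 6 h against sham and from 0 to 1 at ECS 6 h against ECS 2 h. The difference of Klf6 at ECS 2 h against sham, 0.03, became -0.0657 with the values as deposited and -0.0153 with the mean over its probe sets. Leaving out single arrays, differences at ECS 2 h against sham ran from -0.14 to 0.21 for Klf6, from -0.22 to 1.18 for Klf4, from -1.08 to 0.39 for Ier5, from -0.08 to 1.75 for Klf10 and from -0.69 to 0.24 for Egr2. At ECS 6 h against sham they ran from -1.72 to 0.0841 for Klf10, from -0.41 to 0.20 for Ier3 and from -1.22 to 0.20 for Klf4. At ECS 6 h against ECS 2 h they ran from -1.10 to 0.36 for Ier5. The cause of these changes was not tested.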
